A study of Homo sapiens with 6 samples.

Results

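Cholesterol efflux and transport genes are described here as 10 named genes of the gene count table, namely ABCA1, ABCG1, SCARB1, NR1H3, NR1H2, MYLIP, NPC1, NPC2, STARD4 and OSBP. They were picked by name, but with earlier results of these data known. Each matched 1 row of the 78932 genes counted, and 9 of the 10 had enough counts to be tested. The counts came from poly(A) RNA of T24, a human cell line derived from a bladder carcinoma, in a single batch of 6 stranded libraries. Of these, 3 came from cells given a non-targeting siRNA (siNC) and 3 from cells given siRNA against TRIM28 (siTRIM28), a chromatin corepressor recruited by zinc finger proteins that also acts as a ubiquitin ligase. No other agent or time point is named in the labels, which give neither the TRIM28 siRNA sequence used nor the time from transfection to harvest. All 6 libraries share the T24 line and an siRNA treatment, so no untreated cells and no second cell line enter the comparison. The comparison asks how mRNA levels of these genes differ when TRIM28 is silenced.

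Cells take up cholesterol in lipoproteins, release it from late endosomes and lysosomes, move it between membranes on transfer proteins, and export the excess to lipoprotein acceptors outside the cell. Liver X receptors (LXR) are nuclear receptors that bind oxysterols, oxidised forms of cholesterol. They pair with the retinoid X receptor (RXR) and switch on export genes when sterol is abundant. The LXR and RXR pair binds DNA at a repeat of the hexamer AGGTCA in the same direction with 4 bases between, known as DR4, while the SREBP factors act when sterol is scarce and bind sterol elements such as CACCCCAC.

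Promoter sequence was searched for these motifs because LXR receptors and their target genes are both among the 10 genes. RefSeq start site windows of GRCh38.p14, from 250 bases before the start to 50 after, matched 8 of the 10 genes with 12 windows. ABCG1 and SCARB1 had no entry. Both strands were searched, and a DR4 match can overlap a match of the hexamer. The 3 matches are shown 5′ to 3′ on the strand of the gene, with the matched bases in capitals.

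ABCA1, DR4 with 1 mismatch in each hexamer: caggcttTGACCGATAGTAACCTctgcgct
ABCA1, sterol element core: ccctccaccccCACCCCACccacctccccc
NR1H3, AGGTCA: tggtttgcctatAGGTCAgaagcatcccct

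The ABCA1 stretch with the DR4 match is chr9:104928202-104928231, gene on the minus strand, and its match begins at position -69 from the start site and reads on the strand opposite to the gene. The ABCA1 stretch with the sterol element core is chr9:104928365-104928394, with the match beginning at position -228. The NR1H3 stretch is chr11:47248148-47248177, gene on the plus strand, with the match beginning at position -140. Of the 35116 promoter windows in the whole RefSeq table, 1.38% held a DR4 match with up to 1 mismatch per hexamer, 0.0199% an exact DR4, 2.79% the sterol element core and 13.8% the hexamer. The windows of NR1H2, MYLIP, NPC1, NPC2, STARD4 and OSBP did not hold these letters. A match describes the sequence only and is not a measured binding site.

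TRIM28 mRNA was at 103 ± 4.06 CPM (SD, n = 3), where CPM is counts per 1000000 counts of a library scaled by the trimmed mean of M values (TMM), in siNC and at 8.84 ± 0.656 CPM in siTRIM28. Its log2 fold change was -3.54 (SE 0.0723, edgeR quasi-likelihood adjusted p = 1.03e-10). Total counts ranged from 11712623 to 14018052 per library, and 3 counts stood for 0.214 to 0.253 CPM. By a chi-square of their counts, siNC 3 stood apart from siNC 1 and 2, and siTRIM28 1 stood apart from siTRIM28 2 and 3. The chi-square per degree of freedom was 1.08 for siNC 1 and 2 and 1.24 for siTRIM28 2 and 3. For the other pairs within a group it was 4.6 to 6.99. The close pairs differed by slightly more than sampling noise, which does not show that they came from separate cultures. All 6 libraries were counted as separate samples. If the close libraries are not independent, the p-values could be too small, and with them summed 2 of the 10 genes stayed called. The labels call them biological replicates without naming separate cultures, and the p-values measure the spread between these libraries. Of the epithelial markers, KRT8 and KRT18 were abundant, KRT7 was low and KRT19, EPCAM and CDH1 had between 0 and 7 counts per library. Their sum was 189 to 196 CPM in siNC and 206 to 214 CPM in siTRIM28. The urothelial list was at 10.2 to 10.6 CPM in siNC and at 12.2 to 13.3 CPM in siTRIM28, with UPK1B at 0 and UPK1A, a uroplakin named after its values were seen, at 17, 15 and 4 counts against 58, 38 and 34.

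Silencing of TRIM28 came with higher NPC1 mRNA and with small changes in 4 other genes of the group. NPC1, which exports cholesterol from late endosomes, was 1.86-fold higher, while its partner NPC2, the LXR receptor NR1H2 and the lipoprotein receptor SCARB1 were 1.17-fold, 1.15-fold and 1.15-fold higher. OSBP, a sterol carrier between endoplasmic reticulum and Golgi, was lower at 0.86 of the siNC level. Of 16 alternative fits with other settings or libraries, the call was kept in 16 for NPC1 and OSBP. It was kept in 15 for NR1H2, 12 for NPC2 and only 4 for SCARB1. ABCA1, NR1H3, MYLIP and STARD4 did not pass the threshold of an adjusted p of 0.05, and ABCG1 was too low to test. Thus 5 of the 9 genes tested were called, or 55.6%, against 41.8% of all 18474 genes tested. Of these, 4 were higher, where 21.3% of all genes tested were called higher, and 1 was lower, where 20.5% were. The median log2 fold change of the 9 genes was 0.20, against 0.02 over all genes tested, and it was 0.18 over the 8 genes with 10 counts in every library, which leaves out ABCA1. Only NPC1 also passed an absolute log2 fold change of 0.58, a threshold that 17% of all genes tested passed together with the adjusted p.

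**Figure D1:**
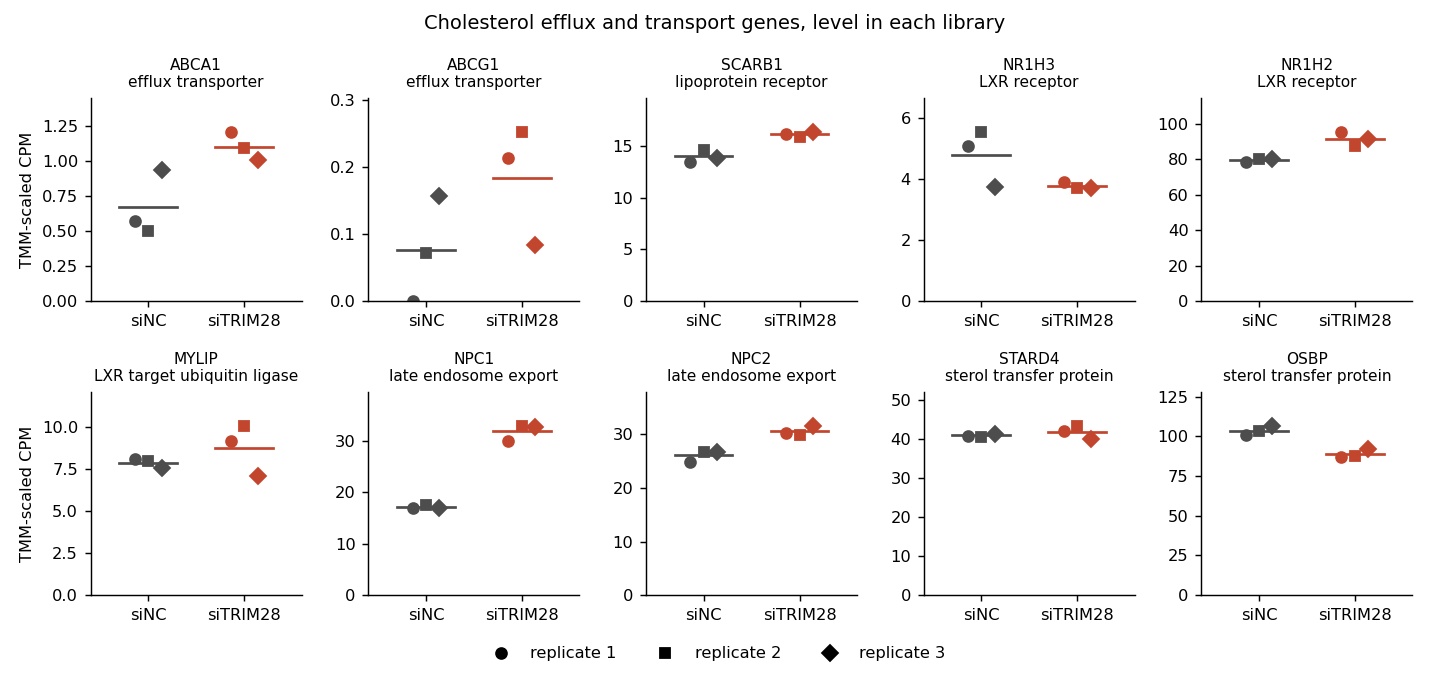
TMM-scaled CPM of each of the 10 genes in every library, with siNC in grey, siTRIM28 in red, a symbol for each replicate number and a line at the group mean. The NPC1 points are near 17 CPM in siNC and between 29.97 and 32.9 CPM in siTRIM28. The ABCG1 axis ends near 0.3 CPM, above the 0.214 to 0.253 CPM for which 3 counts in a library stand.

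The export genes were the least expressed of the group. ABCA1 (ENSG00000165029, chromosome 9, 104781006 to 104928155, minus strand), the transporter that loads cholesterol onto apolipoprotein A-I, had 8, 7 and 12 counts in siNC and 17, 13 and 12 in siTRIM28. In CPM it was at 0.574, 0.504 and 0.938 in siNC and at 1.21, 1.09 and 1.01 in siTRIM28. The groups did not overlap, by a margin of 0.938 against 1.01 CPM (52% of all genes tested did not overlap), and the 2 libraries with 12 counts were siNC 3 and siTRIM28 3. Its log2 fold change of 0.73 (SE 0.317, 95% interval 0.04 to 1.43) had an adjusted p of 0.0857. Without siNC 3, which stands apart, it was 1.03 with an adjusted p of 0.0406, the only fit in which ABCA1 was called. Neither of the other siNC libraries reached 10 counts, so ABCA1 was in that fit through the siTRIM28 counts alone and the call supports nothing. Without each other library in turn it was 0.56 to 0.78. ABCA1 entered the test because all 3 siTRIM28 libraries reached 10 counts, while only 1 siNC library did.

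ABCG1 (ENSG00000160179, chromosome 21, 42199689 to 42297244, plus strand) passes cholesterol on to high-density lipoprotein. It had 0, 1 and 2 counts in siNC and 3, 3 and 1 in siTRIM28. No library exceeded 3 counts, so a difference in ABCG1 was not detectable at this depth and no fold change is given. Both transporters are abundant in macrophages, and the list of 6 macrophage, leukocyte and endothelial markers summed to 0.5 to 0.86 CPM in siNC and to 0.85 to 1.35 CPM in siTRIM28. None of the 6 markers had enough counts to be tested. The endothelial marker PECAM1, named after its values were seen, had 5, 4 and 6 counts in siNC and 10, 9 and 11 in siTRIM28. No other marker of the 6 exceeded 4 counts in a library, and the macrophage markers CD14, CSF1R and CD163 had 0 to 2. The part of such cells in the ABCA1 values was not tested. In RNA from whole cultures, a change in the number of cells that express a gene and a change in its RNA per cell cannot be told apart.

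SCARB1 (ENSG00000073060, chromosome 12, 124776856 to 124882668, minus strand) encodes SR-BI, a receptor that exchanges cholesterol with high-density lipoprotein in both directions. It was at 13.4, 14.6 and 13.8 CPM in siNC and at 16.1, 15.8 and 16.3 CPM in siTRIM28. Every siTRIM28 library was above every siNC library. The log2 fold change was 0.20 (SE 0.0716, 95% interval 0.05 to 0.36), and its adjusted p of 0.0386 lay just under the threshold. The call was lost in 12 of 16 alternative fits, among them DESeq2 (adjusted p = 0.269), limma-voom (0.0597) and each of the 6 fits without a library (0.0546 to 0.164), while the log2 fold change stayed between 0.17 and 0.24.

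The LXR receptors had opposite signs. NR1H3 (ENSG00000025434, chromosome 11, 47248300 to 47268844, plus strand) encodes LXR alpha, the form known from liver, fat and macrophages. It was at 5.10, 5.55 and 3.75 CPM in siNC and at 3.92, 3.70 and 3.70 CPM in siTRIM28. The groups overlapped through siNC 3, which lay beside the siTRIM28 libraries. Its log2 fold change was -0.35 (SE 0.175, 95% interval -0.73 to 0.03), with an adjusted p of 0.132. Without siNC 3 it was -0.49 (adjusted p = 0.0317), and without both libraries that stand apart -0.52 (0.0248). These fits keep the close pair siNC 1 and 2 as the only controls, so their p-values could be too small. With the closest libraries summed, the NR1H3 log2 fold change was -0.31 (adjusted p = 0.284). ACP2, a lysosomal acid phosphatase gene on the opposite strand, shares 189 of the 4533 exonic bases of NR1H3 in the GENCODE v29 annotation and had a log2 fold change of -1.03 (adjusted p = 2.18e-04). The sources used here do not state whether reads were counted by strand, so the share of ACP2 reads in the NR1H3 counts is not known.

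NR1H2 (ENSG00000131408, chromosome 19, 50329653 to 50383388, plus strand) encodes LXR beta, the form found in nearly all tissues. It was at 78.6, 80.2 and 79.8 CPM in siNC and at 95.3, 87.5 and 91.4 CPM in siTRIM28. The groups did not overlap, and the siTRIM28 libraries spread more widely (SD 3.93 CPM) than the siNC libraries (SD 0.882 CPM). NR1H2 rose by 0.20 on the log2 scale (SE 0.0499, 95% interval 0.09 to 0.31, adjusted p = 0.00668). At the threshold of 0.05 the call held in all alternative fits except the one that summed the closest libraries, where the adjusted p was 0.0513.

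MYLIP (ENSG00000007944, chromosome 6, 16129086 to 16151198, plus strand) encodes IDOL, an LXR-induced ubiquitin ligase that marks lipoprotein receptors for breakdown. It was at 8.11, 7.996 and 7.58 CPM in siNC and at 9.18, 10.1 and 7.07 CPM in siTRIM28. The siTRIM28 values ran from below to above the whole siNC group. The log2 fold change was 0.16 (SE 0.133, 95% interval -0.14 to 0.45), with an adjusted p of 0.384, and leaving out single libraries moved it between 0.04 and 0.28. At this spread the interval still held changes from 0.91-fold to 1.36-fold.

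NPC1 and NPC2 hand cholesterol over in late endosomes and lysosomes, and loss of either causes Niemann-Pick type C disease. NPC1 (ENSG00000141458, chromosome 18, 23506184 to 23586487, minus strand), the membrane protein of the pair, had 236, 243 and 217 counts in siNC and 421, 391 and 387 in siTRIM28. In CPM it was at 16.9, 17.5 and 17.0 in siNC and at 29.97, 32.9 and 32.6 in siTRIM28. The lowest siTRIM28 library lay far above the highest siNC library, and siTRIM28 1, which stands apart over all genes, was the lowest of its group. NPC1 rose by 0.89 on the log2 scale (SE 0.0673, 95% interval 0.74 to 1.04, adjusted p = 1.14e-06). It was called in all 17 fits, with log2 fold changes from 0.86 to 0.94. A larger rise was found in 4.87% of all genes tested. RMC1 on the opposite strand shares 604 of the 10102 exonic bases of NPC1 in GENCODE v29. It had 107 to 119 counts in siNC and 91 to 110 in siTRIM28 (log2 fold change -0.07, adjusted p = 0.638), and the part of RMC1 reads in the NPC1 counts was not tested.

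NPC2 (ENSG00000119655, chromosome 14, 74476192 to 74494177, minus strand), the soluble protein that carries cholesterol to NPC1, was at 24.9, 26.8 and 26.8 CPM in siNC and at 30.2, 29.9 and 31.6 CPM in siTRIM28. Every siTRIM28 library was above every siNC library. NPC2 rose by 0.22 on the log2 scale (SE 0.0641, 95% interval 0.08 to 0.37, adjusted p = 0.0146). The call was lost with DESeq2 (adjusted p = 0.0969), without siNC 1 (0.0783), without siTRIM28 3 (0.0521) and with the closest libraries summed (0.0517). ISCA2, an iron-sulfur cluster gene on the opposite strand, shares 103 of the 2749 exonic bases of NPC2 and had 94 to 99 counts in siNC and 102 to 155 in siTRIM28 (log2 fold change 0.43, adjusted p = 0.0160).

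The cytosolic carriers did not move together. STARD4 (ENSG00000164211, chromosome 5, 111496033 to 111512562, minus strand), a soluble sterol carrier between the plasma membrane and the endoplasmic reticulum, was at 40.7, 40.6 and 41.3 CPM in siNC and at 42.1, 43.4 and 39.8 CPM in siTRIM28. The siTRIM28 libraries lay on both sides of the siNC group. Its log2 fold change was 0.03 (SE 0.0595, adjusted p = 0.70), and the 95% interval of -0.10 to 0.16 left room for changes from 0.934-fold to 1.12-fold. STARD4-AS1 on the opposite strand shares 124 of the 5684 exonic bases of STARD4 and had 248 to 268 counts in siNC and 247 to 331 in siTRIM28.

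OSBP (ENSG00000110048, chromosome 11, 59574398 to 59615774, minus strand) exchanges cholesterol for a phosphoinositide between endoplasmic reticulum and Golgi and also binds oxysterols. It was at 101, 103 and 107 CPM in siNC and at 87.1, 87.7 and 92.1 CPM in siTRIM28. All 3 siTRIM28 libraries were below all 3 siNC libraries. OSBP fell by 0.22 on the log2 scale (SE 0.0481, 95% interval -0.32 to -0.11, adjusted p = 0.00341), and it was called lower in all 17 fits, with log2 fold changes from -0.25 to -0.18. An unnamed gene on the opposite strand (ENSG00000255139) spans OSBP without shared exonic bases in GENCODE v29, with 260 to 269 counts in siNC and 225 to 301 in siTRIM28. The siNC and siTRIM28 libraries did not overlap for any of the 5 called genes or for ABCA1, and they overlapped for NR1H3, MYLIP and STARD4. Of all genes tested, 52% did not overlap. The 5 genes were called from the same values, so their lack of overlap is no separate result.

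**Figure D2:**
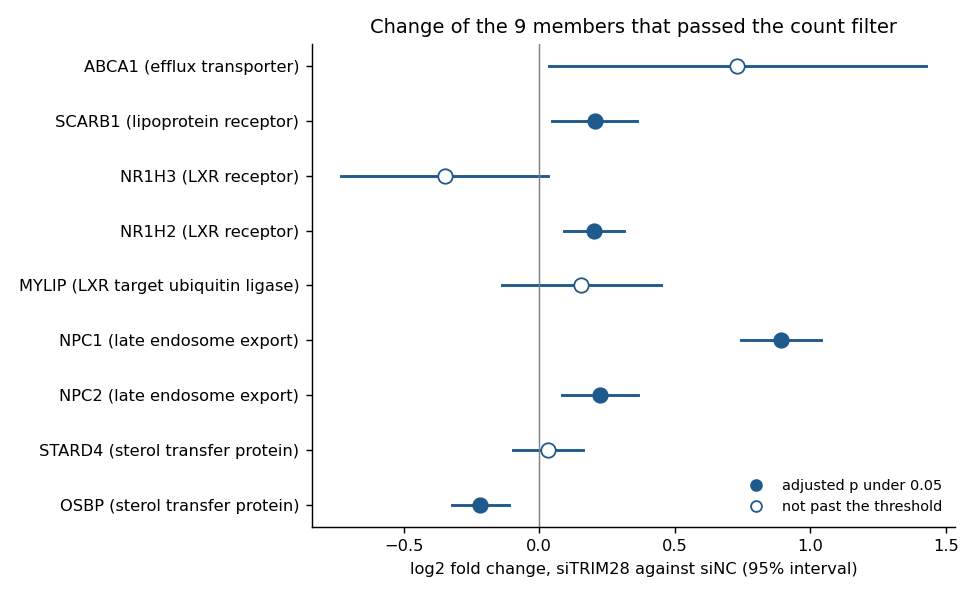
Log2 fold change of siTRIM28 against siNC for the 9 genes tested, from the edgeR fit, with 95% intervals as lines and filled points for an adjusted p under 0.05. NPC1 at 0.89 lies apart from the other called genes, which are at -0.22 for OSBP and between 0.20 and 0.22 for NPC2, NR1H2 and SCARB1, and ABCA1 and NR1H3 have the widest intervals.

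Levels per gene length, in RPKM (TMM-scaled CPM divided by the exonic length of the gene in kilobases), set the genes of the group in order. The lengths were those given with the counts, and the exonic lengths in GENCODE v29 differ. NR1H2 has 5341 bases in the former and 3753 in the latter, MYLIP 6191 and 3033, and OSBP 5122 and 5492. The order of genes close in level, and the shares of genes below them, depend on these lengths. In siNC the means were 20.2 RPKM for OSBP, 14.9 for NR1H2, 10.1 for NPC2, 7.19 for STARD4, 1.77 for NPC1, 1.28 for MYLIP, 1.06 for NR1H3, 0.938 for SCARB1, 0.0593 for ABCA1 and 0.0057 for ABCG1. The ubiquitous LXR beta gene was thus well above the LXR alpha gene, and the transfer proteins were above the exporters. Of neighbours in this order, the siNC libraries of NR1H3 (0.828 to 1.22 RPKM) and SCARB1 (0.902 to 0.982 RPKM) overlapped, and those of MYLIP began at 1.22 RPKM, where NR1H3 ended. OSBP had a higher siNC level per length than 88.1% of all genes tested, NR1H2 than 84.3%, NPC1 than 39.1% and ABCA1 than 0.46%. In siTRIM28, NPC1 was at 3.28 RPKM, still below STARD4 at 7.34 RPKM, and OSBP at 17.4 RPKM overlapped NR1H2 at 17.1 RPKM. NR1H3 at 0.832 RPKM was then below SCARB1 at 1.08 RPKM in every library.

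**Figure D3:**
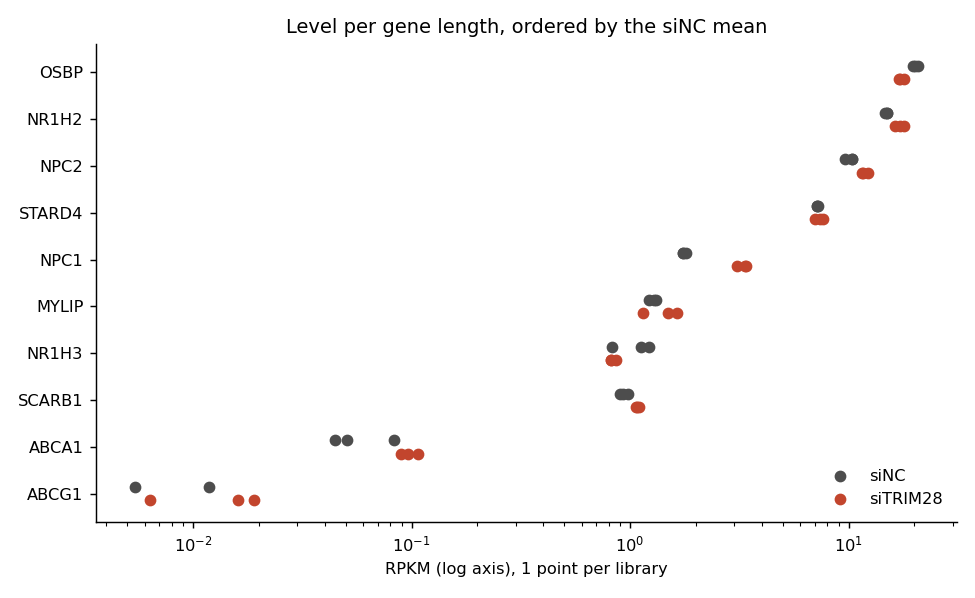
RPKM of each gene on a log axis, with 1 point per library, siNC in grey and siTRIM28 in red, ordered by the siNC mean. The genes span from 0.0057 RPKM for ABCG1 to 20.2 RPKM for OSBP in siNC, and the siNC library in which ABCG1 had 0 counts has no point on the log axis.

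Ratios of 2 genes within a library do not depend on how libraries are scaled, and 5 such pairs of related roles were compared by an exact two-sided permutation test with Benjamini-Hochberg adjustment over the 5 pairs. With 3 libraries against 3 its smallest p is 0.1, so no pair could reach 0.05. The log2 ratio of NPC1 to NPC2 counts was -0.61 ± 0.05 in siNC and 0.06 ± 0.08 in siTRIM28 (SD, n = 3), a difference of 0.67 (exact permutation p = 0.1, adjusted 0.167). NPC2 counts exceeded NPC1 counts in all siNC libraries, and in siTRIM28 the counts were close. The log2 ratio of NR1H3 to NR1H2 went from -4.06 ± 0.30 to -4.58 ± 0.03, a difference of -0.52 (exact permutation p = 0.1, adjusted 0.167). That of STARD4 to OSBP went from -1.34 ± 0.03 to -1.09 ± 0.10, a difference of 0.25 (exact permutation p = 0.1, adjusted 0.167). In these 3 pairs the siNC and siTRIM28 libraries did not overlap, which is the same observation as the p of 0.1 and no separate result. Of single genes tested, 52% did not overlap, and no such share was obtained over gene pairs. For MYLIP to NR1H3 the difference was 0.46 (exact permutation p = 0.2, adjusted 0.25), with overlap. For ABCA1 to ABCG1 it was -0.47 (exact permutation p = 0.7), and at the ABCG1 counts its sign depended on the pseudocount and on siNC 1.

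The other genes of the pathway were taken as 7 lists of 82 genes, of which 61 were tested. Of these, 8 were called higher (13.1%) and 19 lower (31.1%), beside 21.3% and 20.5% of all genes tested, and their median log2 fold change was -0.06. With upper-quartile scaling 12 were higher and 18 lower, and with total-count scaling 11 and 18. The 10 genes described above are not among them.

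In the list of LXR partners and corepressors, 4 of 7 genes tested fell (57.1%, beside 20.5% of all genes tested) and none rose. RXRA, the partner with which both LXR receptors bind DNA, had 208, 208 and 194 counts in siNC and 102, 74 and 73 in siTRIM28. It fell by 1.19 on the log2 scale (SE 0.0949, adjusted p = 1.76e-06), with all siTRIM28 libraries below all siNC libraries. RXRB, a second form of the receptor, fell by 0.53 and the coactivator NCOA6 by 0.26. So in siTRIM28 the widespread LXR beta mRNA was higher and the mRNA of its partner RXRA lower.

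Of the other LXR target genes, 1 of 10 tested rose (10%) and 4 fell (40%), beside 21.3% and 20.5% of all genes tested. RNF145, a ubiquitin ligase, rose by 0.33 on the log2 scale (adjusted p = 3.68e-04). The desaturase gene SCD fell by 0.62 (adjusted p = 2.23e-07) and SREBF1, which encodes SREBP1, by 0.37 (8.64e-04). SMPDL3A, below the count minimum for naming and named after its values were seen, had 32, 42 and 26 counts in siNC and 19, 9 and 10 in siTRIM28. ABCG5 and LPL had 0 counts in all 6 libraries. With upper-quartile scaling 2 genes of the list were called higher, RNF145 and ABCA7.

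For lipoprotein uptake, 2 of 7 genes tested rose (28.6%) and 1 fell (14.3%), beside 21.3% and 20.5% of all genes tested. VLDLR, a lipoprotein receptor that MYLIP marks for breakdown, had 298, 308 and 277 counts in siNC and 532, 482 and 461 in siTRIM28. Its rise of 0.85 on the log2 scale (SE 0.0620, adjusted p = 9.16e-07) was close in size to that of NPC1. LRP1, another lipoprotein receptor, rose by 0.69, and SORT1, a sorting receptor, fell by 0.77. With upper-quartile or total-count scaling, 4 genes of this list were called higher.

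Around NPC1 and NPC2, none of the other 12 genes of lysosomal cholesterol handling rose and 4 fell. That is 33.3% called, beside 41.8% of all genes tested called and 20.5% called lower. TMEM97, which binds the NPC1 protein and limits the level of that protein, had 108, 88 and 84 counts in siNC and 63, 58 and 34 in siTRIM28. Its mRNA fell by 0.75 on the log2 scale (SE 0.185, adjusted p = 0.00666), opposite in direction to NPC1 mRNA. NPC1 protein was not measured in these libraries, and a link between the mRNA changes was not tested. The lysosomal membrane protein LAMP2 fell by 0.40, the endosomal sterol transfer protein STARD3 by 0.34 and LAMP1, named after its values were seen, by 0.27. With upper-quartile or total-count scaling, 1 gene of the list, SCARB2, was called higher. The median of the 12 genes was -0.13, against 0.89 for NPC1 and 0.22 for NPC2.

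Beside STARD4 and OSBP, 21 lipid transfer proteins of membrane contacts were tested, with a median log2 fold change of -0.0039. Of these, 4 rose (19%) and 5 fell (23.8%), near the 21.3% and 20.5% of all genes tested. The OSBP relatives did not share a direction. OSBPL2 rose by 0.38 on the log2 scale and OSBPL5, named after its values were seen, by 0.21, while OSBPL1A fell by 0.27 and OSBPL9 and OSBPL10, named in the same way, fell by 0.15 and 0.17. VAPA, the endoplasmic reticulum protein that OSBP docks on, had 1203, 1248 and 1125 counts in siNC and 848, 786 and 762 in siTRIM28, and fell by 0.47 (SE 0.0528, adjusted p = 2.65e-05). The carrier SCP2 fell by 0.31, and the sterol transporters GRAMD1C and GRAMD1A, which bring plasma membrane cholesterol to the endoplasmic reticulum, rose by 0.41 and 0.21. The calls of GRAMD1C and OSBPL1A were lost in 6 and 4 of 16 alternative fits.

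Both tested genes of ester storage were called, in opposite directions, where 41.8% of all genes tested were called. NCEH1, a cholesteryl ester hydrolase, had 273, 261 and 231 counts in siNC and 469, 423 and 387 in siTRIM28 and rose by 0.85 on the log2 scale (SE 0.0675, adjusted p = 1.76e-06). SOAT1, which esterifies cholesterol, fell by 0.31 (adjusted p = 0.00315). Of 8 genes that make or remove oxysterols, the LXR ligands, 2 were tested and neither passed, and CH25H and CYP7B1 had 0 counts in every library. PPARG, a nuclear receptor upstream of NR1H3 in macrophages, was at 7.12 ± 0.945 CPM in siNC and 7.49 ± 0.965 CPM in siTRIM28 (SD, n = 3). Its log2 fold change was 0.07, with an adjusted p of 0.728.

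**Figure D4:**
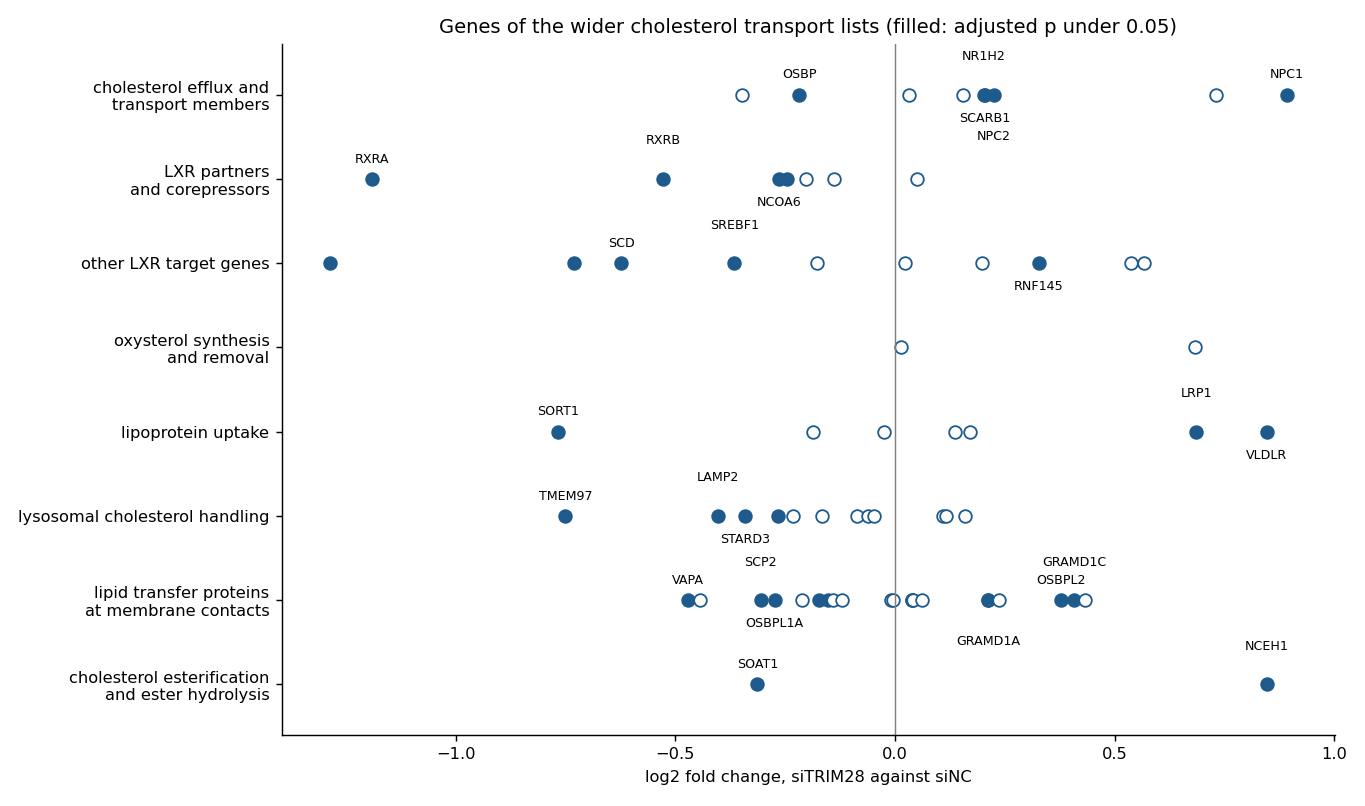
Log2 fold change of each tested gene of the 10 and of the 7 other lists, with 1 row per list and filled points for an adjusted p under 0.05. The LXR partners and the lysosomal genes have called points only below 0, reaching -1.19 for RXRA and -0.75 for TMEM97, with 1 lysosomal gene called higher under 2 other scalings, while NPC1, VLDLR and NCEH1 lie between 0.85 and 0.89.

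**Figure D5:**
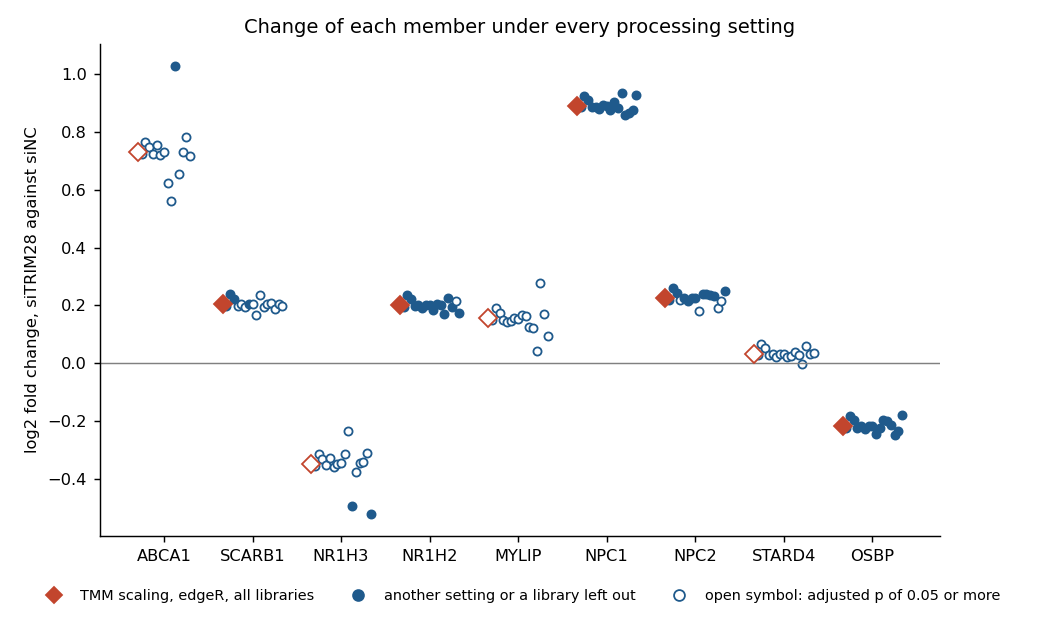
Log2 fold change of the 9 genes under 17 fits (15 for ABCA1), with the reported fit as a red diamond, other settings or a library left out as blue points, and open symbols for an adjusted p of 0.05 or more. NPC1 stays filled from 0.86 to 0.94 and OSBP from -0.25 to -0.18, while SCARB1 is open in 12 of 16 alternative fits at about the same size.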

How the data were processed

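Poly(A) RNA of 6 T24 libraries was compared, 3 siNC and 3 siTRIM28, grouped and numbered by their labels. Per the labels, reads were trimmed with fastp 0.23.1 and aligned with STAR 2.7.6a to GRCh38, and the authors deposited raw featureCounts counts per gene. The annotation release and strand setting are not given in the sources used here. The deposited RPKM table of selected genes was not used.

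The quasi-likelihood test of edgeR 4.0.16 (R 4.3.3, glmQLFit and glmQLFTest) was run on TMM-scaled counts with group as its single term. It covered the 18474 genes that reached 10 counts in 3 or more libraries, with Benjamini-Hochberg adjustment over them and a threshold of 0.05. SEs were obtained as the fitted log2 change over the root of its F statistic. Ratios used a pseudocount of 0.5. Shared exonic bases came from GENCODE v29. Depth was 11712623 to 14018052 counts per library, and the common biological coefficient of variation was 0.0733. In simulated counts of this comparison with 18170 genes, 63 of 71 genes (88.7%) changed by 0.8 on the log2 scale with a mean of at least 50 counts were recovered, and 22 of 73 (30.1%) changed by 0.4. The simulation changed a far smaller share of genes than the 41.8% called in the data, which makes the adjusted threshold stricter. These shares are therefore not the recovery of the reported fit.

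The 10 genes and the lists were chosen with earlier results of these data known. From each list, the 3 largest rises and falls with an adjusted p under 0.05 and a mean of at least 50 counts were named, with the 10 genes, TRIM28 and PPARG. A few list genes enter the counts but are not reported here. Alternatives were 3 other scalings (RLE, upper quartile, total count), the tests of limma-voom (limma 3.58.1) and DESeq2 1.42.0, 2 other count filters, a replicate block, fits without each library, the closest libraries summed (siNC 1 with 2, siTRIM28 2 with 3), and 2 stricter thresholds. Leaving out both libraries that stand apart, and a pseudocount of 2, were added after seeing the data. Figures were drawn with matplotlib 3.10.9.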

Additional observations from a re-analysis of the deposited data

How the results depend on the processing

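Of the 10 genes, NPC1 and OSBP kept their direction and an adjusted p under 0.05 in all 16 alternative fits, and NR1H2 in 15. The 5 called genes became 3 (2 higher) with DESeq2 and at an adjusted p under 0.01, 2 (1 higher) with the closest libraries summed, and 1 (1 higher, 0 lower) with a log2 fold change of 0.58 as well, which left 3144 genes over the table and 9 pathway genes. Leaving out single libraries gave 3 to 6 called, 2 to 4 higher and 1 to 2 lower, with 3 without siNC 1 or siTRIM28 3. Leaving out both libraries that stand apart gave 2 lower (NR1H3 and OSBP). The median log2 fold change was 0.24 with upper-quartile scaling, 0.22 with total counts, 0.18 with 10 counts in every library, 0.13 without both libraries that stand apart and 0.17 to 0.21 without single libraries. ABCA1 is not tested in the fits giving 0.18 and 0.13. Without siTRIM28 2, STARD4 was at -0.0036 and PPARG at -0.012 (-0.0036 to 0.058 and -0.012 to 0.18 without single libraries). The ABCA1 to ABCG1 difference was 0.0064 with a pseudocount of 2 and -0.78 to 0.12 without single libraries (0.12 without siNC 1). The cause of these changes was not tested. Calls over the table were 51.1% higher in the reported fit and 56.6% higher with upper-quartile scaling, and the whole table gave 5878 calls with DESeq2 and 5393 at an adjusted p under 0.01. Replicate numbers did not pair the libraries (same-number correlations 0.0523, -0.0118 and 0.0374). With the replicate number as a block, 4 of the 10 genes were called (3 higher), with a median of 0.20, and SCARB1 (adjusted p = 0.0666) was the call lost. At 10 counts per library a gene lies under 1 CPM, which limits ABCA1, and ABCG1 was at or below the limit of 3 counts.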
